A study of Mus musculus with 4 samples.

Results

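The insulin-like growth factor (IGF) genes described here are the ligands Igf1 and Igf2, the receptors Igf1r and Igf2r, and the binding proteins Igfbp2 to Igfbp7. These 10 symbols were taken as a family, and the transcripts of each were found by their mm10 position. All 10 were found among 25743 named genes, and 9 of them were among the 11271 genes that reached 1 FPKM in at least 2 libraries and were tested. FPKM is a fragment count corrected for the length of the transcript and the size of the library, so levels can be set side by side between genes. The RNA came from stromal cells of adult C57BL/6 mouse prostate, sorted by flow cytometry as Lin-, CD24-, CD49f- and Sca-1+. There were 2 libraries from proximal ducts, which lie next to the urethra, and 2 from distal ducts, which end at the lobe tips. The submitters numbered them 2 and 3 in both regions, and values are given for number 2 before number 3. No allele or agent is named, and the labels do not say whether a library came from 1 animal or a pool, or whether libraries came from separate animals. P-values thus reflect library-to-library spread alone, which may be technical. In the main test, with region as the only term, that spread includes the difference between numbers 2 and 3. Deviations of same-numbered libraries from their region means correlated at 0.815 across genes.

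IGF-I and IGF-II are small secreted proteins, related to insulin, that drive growth and survival through the receptor tyrosine kinase encoded by Igf1r. The receptor encoded by Igf2r carries IGF-II to the lysosome and does not signal as a kinase. The binding proteins hold most IGF in extracellular fluid, lengthen its life and limit or direct its access to the receptor, and proteases release it again. In the prostate, stromal cells are a known source of IGF-I for the neighbouring epithelium.

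Cell identity and depth were read from the same libraries. Summed FPKM of 6 fibroblast markers was 5269 and 5147 in the proximal libraries and 4594 and 3875 in the distal libraries. Leukocyte, endothelial and Schwann cell markers summed to between 0.209 and 9.28 FPKM in any library, with Cd3e listed at 0 in all 4. Markers of prostate epithelium (7 genes) summed to 37.3 and 272.9 FPKM in proximal libraries 2 and 3, against 34.5 and 88.7 FPKM in distal libraries 2 and 3. Those of smooth muscle (6 genes) summed to 274.7 and 134.4 FPKM in the proximal and to 312.0 and 188.3 FPKM in the distal libraries. Between 10148 and 11456 genes reached 1 FPKM. No file states how many fragments a library had, so depth is unknown. Across genes, libraries of the same number were more alike (Pearson's r = 0.952 for both numbers) than libraries of the same region (0.869 for proximal, 0.911 for distal).

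Sequences are given for 3 of the genes. The first is a coding exon of Igf1, shown because the pair of Igf1 transcripts detected here differ in length by exactly its size. It is annotated in GENCODE M21 (GRCm38, the assembly of mm10) at chr10:87915298-87915349 on the plus strand and has 52 bases.
Igf1 exon: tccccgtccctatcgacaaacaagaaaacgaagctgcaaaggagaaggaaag
The others are the 250 bases before the RefSeq start (GRCm38.p6) of Igfbp5 (chr1:72874866-72875115, minus strand) and of Igfbp6 (chr15:102143936-102144185, plus strand). They are shown because these were the members with both proximal libraries above both distal libraries. Capitals mark matches to the motifs named in the next paragraph.
Igfbp5: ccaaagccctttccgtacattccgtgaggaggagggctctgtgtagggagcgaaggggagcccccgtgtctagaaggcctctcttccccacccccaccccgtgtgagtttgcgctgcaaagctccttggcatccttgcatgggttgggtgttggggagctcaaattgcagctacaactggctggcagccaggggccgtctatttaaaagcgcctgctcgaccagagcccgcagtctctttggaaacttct
Igfbp6: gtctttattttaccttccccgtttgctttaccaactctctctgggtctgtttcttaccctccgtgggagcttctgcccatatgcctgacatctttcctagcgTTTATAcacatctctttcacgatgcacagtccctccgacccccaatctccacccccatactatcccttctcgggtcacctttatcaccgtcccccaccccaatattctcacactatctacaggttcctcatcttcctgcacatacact

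The motifs were searched on both strands of the same window. The TATA box letters TATAAA were found before the start of Igfbp6 (on the opposite strand) and of Igfbp4, and in 12.4% of all 32851 promoter entries. The match is by letters alone, and that of Igfbp6 lies nearer the far end of the window than the start. The GC box GGGCGG was found in 6 of the 14 entries of the 10 genes, those of Igf1r, Igf2, Igf2r, Igfbp2 and Igfbp7, and in 32.7% of all entries. The letters AGAACA, part of the element bound by androgen and glucocorticoid receptors, were found for Igf2 and Igfbp2 and in 16.1% of all entries. The forkhead motif GTAAACA was in 0 of the 14 entries and in 3.2% of all, TGACTCA (known for binding AP-1 factors) in 1 entry, of Igfbp2, and in 4.5% of all, and the E-box CAGCTG in 1 entry, of Igf1, and in 13.0% of all. The Igfbp5 window held none of the 6 motifs.

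Binding proteins made up the most abundant members. Averaged over the 4 libraries, Igfbp7 stood at 1009.9 FPKM, in place 38 by level among the 11271 tested genes, followed by Igfbp4 (475.6 FPKM), Igfbp6 (447 FPKM), Igfbp5 (368 FPKM) and Igfbp3 (258 FPKM). Igf1 followed at 68.7 FPKM, Igfbp2 at 14.8 FPKM, Igf2r at 5.86 FPKM, Igf1r at 3.31 FPKM and Igf2 at 0.450 FPKM. Igfbp7 lay above Igfbp4, and Igfbp3 above Igf1, in 4 of 4 libraries, although the ranges of each pair over the libraries overlapped. Igfbp4 also lay above Igfbp3 in 4 of 4 libraries, with overlapping ranges. The other pairs among Igfbp4, Igfbp6, Igfbp5 and Igfbp3 came in a different order between libraries, as did Igf2r and Igf1r. The steps between Igf1 and Igfbp2, between Igfbp2 and Igf2r and between Igf1r and Igf2 showed no overlap in these libraries.

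**Figure D1:**
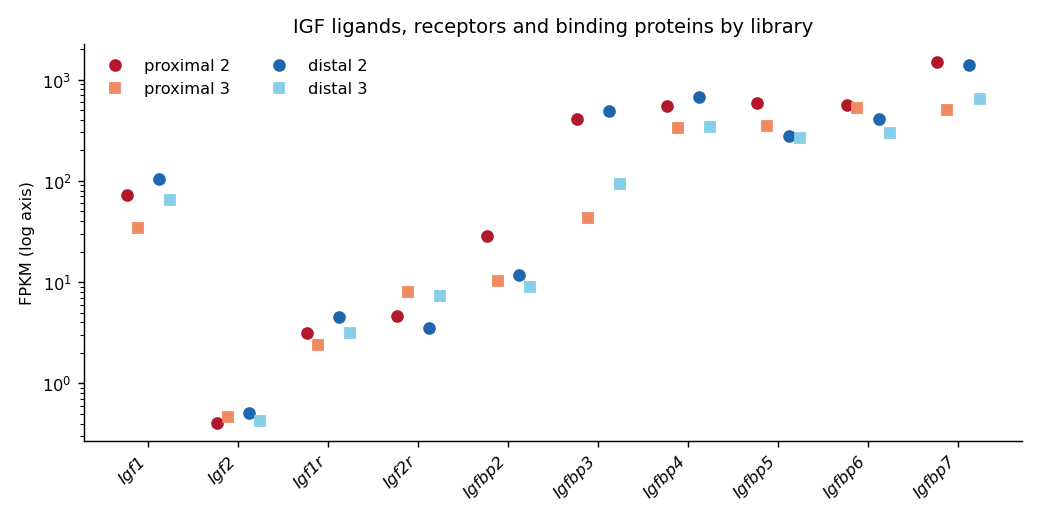
FPKM (log axis) of the 10 genes in each library, proximal in shades of red and distal in shades of blue, with circles for libraries numbered 2 and squares for those numbered 3. Igfbp3 to Igfbp7 lie mostly above 100 FPKM while Igf2 stays near 0.450 FPKM, and Igfbp3 splits by number rather than by region.

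Igf1 was the more abundant ligand. It lies on chromosome 10 at 87858265 to 87937042 (plus strand, mm10) and stood at 72.4 and 33.9 FPKM in proximal libraries 2 and 3, against 104.5 and 64.1 FPKM in distal libraries 2 and 3. The value was lower in proximal than in distal stroma within each number, but proximal library 2 lay above distal library 3, so the regions overlapped. The means were 53.2 ± 27.2 FPKM (SD, n = 2) for proximal and 84.3 ± 28.6 FPKM (SD, n = 2) for distal stroma. The difference of log2(FPKM + 1), proximal minus distal, was -0.71 ± 0.49 (SE) and did not pass the test (adjusted p = 0.99991, limma with Benjamini-Hochberg adjustment). In bulk samples, fewer cells of a type and less RNA per cell cannot be told apart. Of 6 smooth muscle markers, 3 were lower and 1 (Myh11) was higher in proximal stroma within both numbers. Of 7 prostate epithelial markers, 4 were higher and 0 were lower in the same sense. The 5 pericyte markers summed to 12.8 and 14.3 FPKM in the proximal and 19.3 and 20.7 FPKM in the distal libraries, but without Cspg4 to 5.51 and 6.57 FPKM in the proximal and 4.21 and 3.08 FPKM in the distal libraries. The part of any of these cell types in the Igf1 difference was not tested.

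The files list 5 Igf1 transcripts, of which 2 had values above 0. Both begin at base 87859056, and the 3 that begin 2055 bases downstream, at base 87861111, were listed at 0 in all 4 libraries. The annotated pair of Igf1 leader exons gives signal peptides of different length, and a listed 0 can be a failed division of fragments. The detected transcripts share both ends and differ by 52 bases, the length of the exon printed above, which in mouse is known to switch the end of the precursor to the Eb form. The longer transcript stood at 14.3 FPKM (deposited bounds 13.4 to 15.2) in proximal library 2 and 7.63 FPKM (7.05 to 8.21) in proximal library 3, against 30.1 FPKM (28.5 to 31.6) in distal library 2 and 19.1 FPKM (18.1 to 20.2) in distal library 3. The shorter stood at 58.2 and 26.3 FPKM in proximal libraries 2 and 3, against 74.4 and 44.9 FPKM in distal libraries 2 and 3. The longer form was therefore 19.7% and 22.5% of Igf1 in the proximal libraries and 28.8% and 29.9% in the distal libraries, without overlap. This share was not among the results planned in advance, and no background of transcript shares was computed. At gene level, 21.6% of all tested genes separated the regions. The share differed by -8.25 percentage points, proximal minus distal (two-sided exact permutation test, p = 0.333, the smallest that 2 against 2 libraries allow). The files give ends and lengths and no exons, and the split is Cufflinks' estimate.

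**Figure D2:**
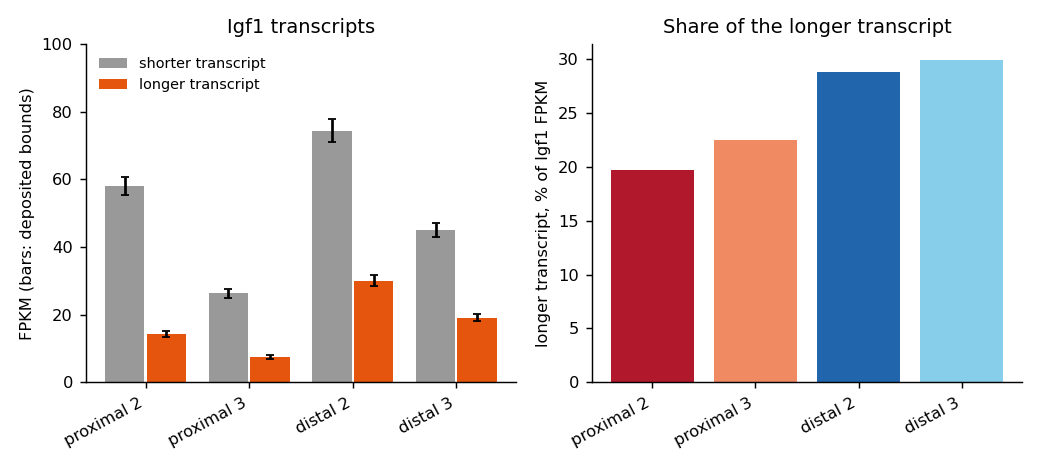
Left, FPKM of the shorter and the longer Igf1 transcript in each library, with the deposited lower and upper bounds as error bars. Right, the longer transcript as a percentage of Igf1 FPKM, which is 19.7% and 22.5% in the proximal and 28.8% and 29.9% in the distal libraries.

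Igf2, the imprinted fetal ligand that most mouse tissues silence after birth, was low. It lies on chromosome 7 at 142650766 to 142666816 (minus strand). Its values were 0.404 and 0.465 FPKM in proximal libraries 2 and 3, against 0.504 and 0.428 FPKM in distal libraries 2 and 3, below the minimum for testing. H19, the imprinted RNA next to Igf2 (chosen after its values were seen), did not exceed 0.0281 FPKM. Igf2os, which runs antisense to Igf2, was listed at 0 in all 4 libraries (also chosen after its values were seen).

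Both receptors were present at a few FPKM. Igf1r (chromosome 7, 67952827 to 68233668, plus strand) stood at 3.17 and 2.41 FPKM in proximal libraries 2 and 3, against 4.49 and 3.17 FPKM in distal libraries 2 and 3, a log2 difference of -0.34 ± 0.42 (SE). It was lower in proximal stroma within each number, and proximal library 2 and distal library 3 were level. Igf2r (chromosome 17, 12682406 to 12769664, minus strand) stood at 4.63 and 8.01 FPKM in the proximal and 3.53 and 7.27 FPKM in the distal libraries, a log2 difference of 0.22 ± 0.52 (SE). Its values followed the number, with both libraries numbered 3 above both numbered 2. Airn, the antisense RNA known to silence the paternal Igf2r allele in mouse, overlaps Igf2r and stood at 2.45 and 5.78 FPKM in proximal and 2.64 and 4.55 FPKM in distal stroma. The kit is not stated to mark strand, so fragments in the shared stretch cannot be told apart.

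Igfbp5 and Igfbp6 were the members whose proximal libraries both lay above both distal libraries. Igfbp5, which binds matrix as well as IGF, stood at 583 and 345 FPKM in proximal libraries 2 and 3, against 278 and 264 FPKM in distal libraries 2 and 3. The proximal libraries differed more from each other than the distal ones. The means were 464 ± 168 FPKM (SD, n = 2) for proximal and 271 ± 9.92 FPKM (SD, n = 2) for distal stroma, with a log2 difference of 0.73 ± 0.38 (SE; adjusted p = 0.99991, limma). Igfbp6, which prefers IGF-II over IGF-I, stood at 555 and 527 FPKM in the proximal, against 407 and 299.6 FPKM in the distal libraries. The means were 541 ± 19.4 FPKM (SD, n = 2) for proximal and 353 ± 76.1 FPKM (SD, n = 2) for distal stroma, with a log2 difference of 0.63 ± 0.33 (SE; adjusted p = 0.99991, limma). The lowest proximal value of Igfbp6 was above the highest distal value by more than the gap between the proximal libraries. Of the 6 fibroblast markers, Dcn was above its distal values in both proximal libraries, and without it the other 5 summed to 2397 and 1475 FPKM in the proximal and 2124 and 1521 FPKM in the distal libraries. Their part in these differences was not tested. Igfbp5 lies on chromosome 1 at 72857932 to 72874884 (minus strand) and Igfbp6 on chromosome 15 at 102144362 to 102149511 (plus strand).

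The Igfbp5 total is the sum of a transcript of 5854 bases and an unspliced block of 3349 bases at the 3' end of the gene. The block held 33.0% and 39.0% of the sum in proximal libraries 2 and 3, against 37.4% and 29.9% in distal libraries 2 and 3, so its share overlapped between regions. The longer transcript alone stood at 391 and 211 FPKM in the proximal, against 174 and 185 FPKM in the distal libraries, also without overlap.

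Igfbp2 lies next to Igfbp5 on chromosome 1 (72824503 to 72852474, plus strand), the facing ends 5457 bases apart. It stood at 28.3 and 10.2 FPKM in proximal libraries 2 and 3, against 11.8 and 9.04 FPKM in distal libraries 2 and 3. The high value was that of proximal library 2, and proximal library 3 lay between the distal libraries. The log2 difference was 0.68 ± 0.56 (SE), made up of 1.20 within number 2 and 0.16 within number 3; within a number there is 1 library a region and no test.

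Igfbp3, Igfbp4 and Igfbp7 had region differences smaller in size than their SE in the fit with region alone. Igfbp3 and Igfbp4 were lower in proximal stroma within each number, and Igfbp7 was not. Igfbp3, the main carrier of IGF in blood (chromosome 11, 7206086 to 7213923, minus strand), stood at 410.5 and 42.7 FPKM in proximal libraries 2 and 3, against 486 and 92.2 FPKM in distal libraries 2 and 3. Its libraries numbered 3 were far below those numbered 2 in both regions, a mean log2 difference of -2.81, number 3 minus number 2. The region difference was -0.67 ± 1.28 (SE). With the library number as a term of the limma fit, its SE was 0.26 (adjusted p = 0.199, limma). Igfbp7, which binds IGF weakly and insulin more strongly than its relatives (chromosome 5, 77349240 to 77408041, minus strand), stood at 1488 and 502 FPKM in the proximal and 1401 and 649 FPKM in the distal libraries. It too followed the number, with a region difference of -0.14 ± 0.67 (SE). Igfbp4, an inhibitor of IGF action (chromosome 11, 99041244 to 99054392, plus strand), stood at 549 and 332 FPKM in the proximal and 679.6 and 341 FPKM in the distal libraries, a region difference of -0.17 ± 0.48 (SE).

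Igfbp7 overlaps the end of Polr2b, an RNA polymerase II subunit on the opposite strand, by 85 bases in the annotation. Polr2b (chosen after its values were seen) was listed at 0 in proximal library 2 and at 15.7 FPKM in proximal library 3, against 0 in distal library 2 and 19.1 FPKM in distal library 3. The libraries with Polr2b listed at 0 were thus those with high Igfbp7, and an exact 0 can be a failed estimate. Summed smooth muscle markers were also lower, and summed epithelial markers higher, in the libraries numbered 3 of each region. The part of the Polr2b overlap in the number difference of Igfbp7 was not tested. Nor was that of these cell types in the number difference of Igfbp3 and Igfbp7. Among the 9 tested members, 2 (Igfbp3 and Igfbp7) were at least 2-fold lower in number 3 in both regions (background 11.5%). The median log2 difference of number 3 minus number 2 was -0.86 for the 9 tested members and -0.33 for all tested genes.

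**Figure D3:**
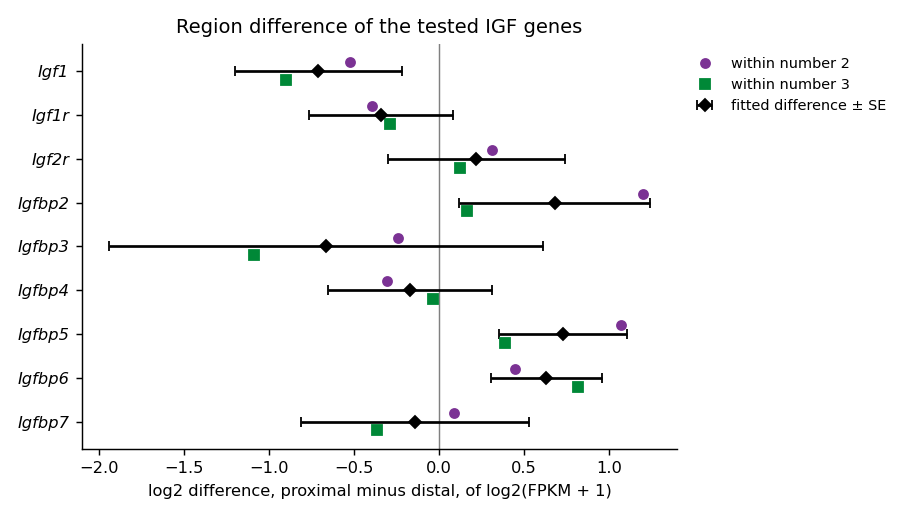
Log2 difference, proximal minus distal, of the 9 tested genes: black diamonds with bars give the fitted value ± SE, purple circles the difference within number 2 and green squares that within number 3. Igfbp5 and Igfbp6 lie to the right of 0 in both numbers, Igf1 and Igf1r to the left, and the bar of Igfbp3 is the widest at ± 1.28.

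Of the 9 tested members, 0 passed the limma test over all genes (background 0.0%), and 0 had an unadjusted p under 0.05 (background 3.16%). The smallest unadjusted p was 0.108 for Igfbp5. The 9 differences had a median of -0.14 on the log2 scale, with 4 members higher and 5 lower in proximal stroma, against a median of 0.09 and 60.4% higher for all tested genes. Both proximal libraries lay above both distal ones for 2 of 9 (background 13.0%) and below for 0 of 9 (background 8.64%), together 2 of 9 (background 21.6%), which is close to the background. Within number 2 and within number 3 the difference pointed the same way for 8 of 9 members, Igfbp7 excepted (background 67.0%). With the library number added as a term of the limma fit, 0 of 9 members passed (background 4.13%). The smallest adjusted p of a member was then 0.0954 (limma), for Igf1. The SE of its difference was 0.19, against 0.49 with region alone. Under median ratio scaling, Igf1 and Igf1r also separated the regions, with both proximal values lower, and Igfbp2 did with both higher, which makes 5 of 9 members against 24.9% of all tested genes under that scaling.

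Summed over the 6 binding proteins, FPKM differed more by number than by region. The sum was 3614 and 1760.5 FPKM in proximal libraries 2 and 3, against 3263 and 1655 FPKM in distal libraries 2 and 3, a ratio of mean sums of 1.09 (two-sided exact permutation test, p = 0.667). Igfbp7 was the largest part in 3 of the 4 libraries, at 41.2% and 28.5% of the sum in proximal and 42.9% and 39.2% in distal stroma. In proximal library 3 Igfbp6 was larger, at 30.0%. Igfbp4 made up 15.2% and 18.9% in proximal and 20.8% and 20.6% in distal stroma, and Igfbp5 made up 16.1% and 19.6% in proximal and 8.52% and 16.0% in distal stroma.

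The ratio of binding protein RNA to ligand RNA was higher in the proximal libraries, mainly through a lower ligand sum. Mean sums, proximal over distal, had a ratio of 0.63 for the ligands and 1.09 for the binding proteins. The two-sided exact permutation test gave p = 0.667 for each sum. Igf1 made up nearly all of the ligand sum, and its values overlapped between regions. For each FPKM of Igf1 and Igf2 together, the 6 binding proteins summed to 49.6 and 51.2 FPKM in proximal libraries 2 and 3, against 31.1 and 25.6 FPKM in distal libraries 2 and 3. The ratio averaged 50.4 ± 1.11 (SD, n = 2) in proximal and 28.4 ± 3.84 (SD, n = 2) in distal stroma. The regions did not overlap, and the ratio, unlike the sums, was similar in both numbers. The exact permutation test gave p = 0.333, the smallest it can give here. The ratio was formed after the values were seen, and it compares RNA, not protein.

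**Figure D4:**
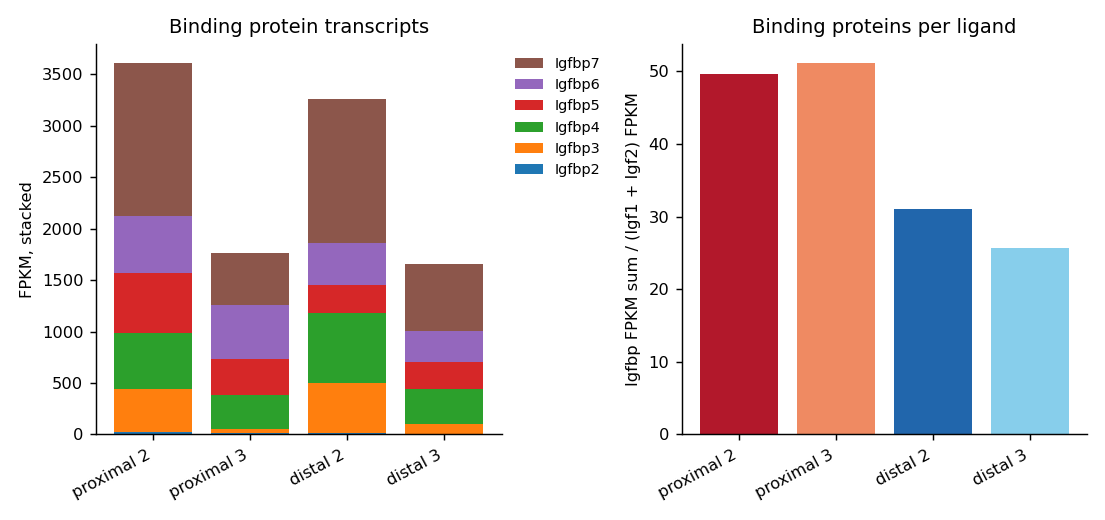
Left, FPKM of the 6 binding proteins stacked per library, with totals of 3614 and 1760.5 in the proximal and 3263 and 1655 in the distal libraries. Right, that total divided by the FPKM of Igf1 plus Igf2, which is 49.6 and 51.2 in the proximal and 31.1 and 25.6 in the distal libraries.

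Genes around the IGF system were taken from 7 lists with 75 genes, of which 59 were tested. Over all genes 0 of the 59 passed (limma), 4 had an unadjusted p under 0.05 (background 3.16%), and the median difference of the 59 was 0.05. Both proximal libraries lay above both distal ones for 5 of them (background 13.0%) and below for 6 (background 8.64%). With the library number added as a term of the limma fit, 7 of the 59 passed (background 4.13%). No label ties a number to an animal or day, so calls in the next paragraphs are those of the fit with region alone.

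The proteases that cut binding proteins, with their inhibitors, held 3 of those 4 genes. Pappa2, a metalloprotease that cleaves Igfbp3 and Igfbp5, stood at 3.15 and 7.99 FPKM in proximal libraries 2 and 3, against 0.439 and 1.32 FPKM in distal libraries 2 and 3. Both proximal values lay above both distal values, a log2 difference of 1.74 ± 0.56 (SE; adjusted p = 0.99991, limma). Stanniocalcin 2 (Stc2), known in human to block the related protease PAPP-A, stood at 3.92 and 2.86 FPKM in the proximal and 0.575 and 1.19 FPKM in the distal libraries, a log2 difference of 1.23 ± 0.42 (SE). Stanniocalcin 1 (Stc1), a relative with the same known action (chosen after its values were seen), went the other way, at 4.95 and 5.25 FPKM in proximal and 10.4 and 22.3 FPKM in distal stroma. Its log2 difference was -1.42 ± 0.49 (SE). Of 10 listed genes 7 were tested and 0 passed in either direction, with a median of 0.12. Pappa itself (not tested, chosen after its values were seen) was at 0.872 and 0.537 FPKM in proximal and 0.352 and 0.329 FPKM in distal stroma.

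Growth hormone drives Igf1 transcription through its receptor, Jak2 and the Stat5 factors. All 7 genes of this list were tested, 6 had a lower proximal mean (39.6% of all tested genes did), 0 passed, and the median was -0.23. The direction was the same within both numbers for 5 of the 7 (background 67.0%). Of these, Stat5b was the gene that was higher in proximal stroma (chosen after its values were seen). Stat5a stood at 9.06 and 11.9 FPKM in proximal libraries 2 and 3, against 17.7 and 27.4 FPKM in distal libraries 2 and 3, a log2 difference of -1.02 ± 0.40 (SE). Socs2, an inhibitor induced by this receptor, stood at 18.2 and 17.1 FPKM in the proximal and 30.7 and 22.9 FPKM in the distal libraries, a log2 difference of -0.56 ± 0.35 (SE). The regions did not overlap for either gene, and for both the adjusted p was 0.99991 (limma).

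Signalling downstream of the receptors showed differences in both directions and no call in the fit with region alone. Of 12 listed insulin receptors and adaptors 11 were tested, with a median of 0.11. Sh2b2, an adaptor of insulin and cytokine receptors, stood at 4.72 and 9.84 FPKM in proximal and 11.6 and 17.4 FPKM in distal stroma, a log2 difference of -0.95 ± 0.49 (SE). The receptor substrate Irs1 stood at 4.95 and 2.18 FPKM in proximal and 2.75 and 1.36 FPKM in distal stroma, a log2 difference of 0.55 ± 0.52 (SE). Of 19 kinases and regulators of the PI3K, AKT and mTOR core 17 were tested, with a median of -0.04 and a range of -0.36 (Rictor, an mTOR complex subunit) to 0.52 (Pik3r3, a PI3K regulatory subunit). Tsc2, the mTOR inhibitor (not tested, chosen after its values were seen), was listed at 9.61 FPKM in proximal library 2 and at 0 in the other libraries, and an exact 0 can be a failed estimate. Of 15 FOXO factors and targets 14 were tested, with a median of 0.25. Bcl6, a transcriptional repressor, stood at 19.7 and 9.90 FPKM in proximal and 37.0 and 28.6 FPKM in distal stroma (unadjusted p = 0.0463, limma), and the mitochondrial superoxide dismutase Sod2 at 15.7 and 29.5 FPKM in proximal and 35.5 and 70.2 FPKM in distal stroma.

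Most other carriers and RNA-binding partners were below the minimum for testing. Igfbp1 and Ins2 were listed at 0 in all 4 libraries, which can be a failed estimate, and Igfals, which stabilises circulating IGF, did not exceed 0.252 FPKM (these genes were chosen after their values were seen). Kazald1, a secreted relative of the binding proteins and the only tested one of 6 in its list, stood at 18.9 and 13.9 FPKM in the proximal and 12.8 and 10.1 FPKM in the distal libraries, a log2 difference of 0.48 ± 0.38 (SE). Of 6 Igf2 mRNA-binding proteins and imprinted transcripts, Airn and Igf2bp2 were tested. Igf2bp2 stood at 1.16 and 10.3 FPKM in the proximal and 1.36 and 4.22 FPKM in the distal libraries, a log2 difference of 0.49 ± 0.91 (SE).

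**Figure D5:**
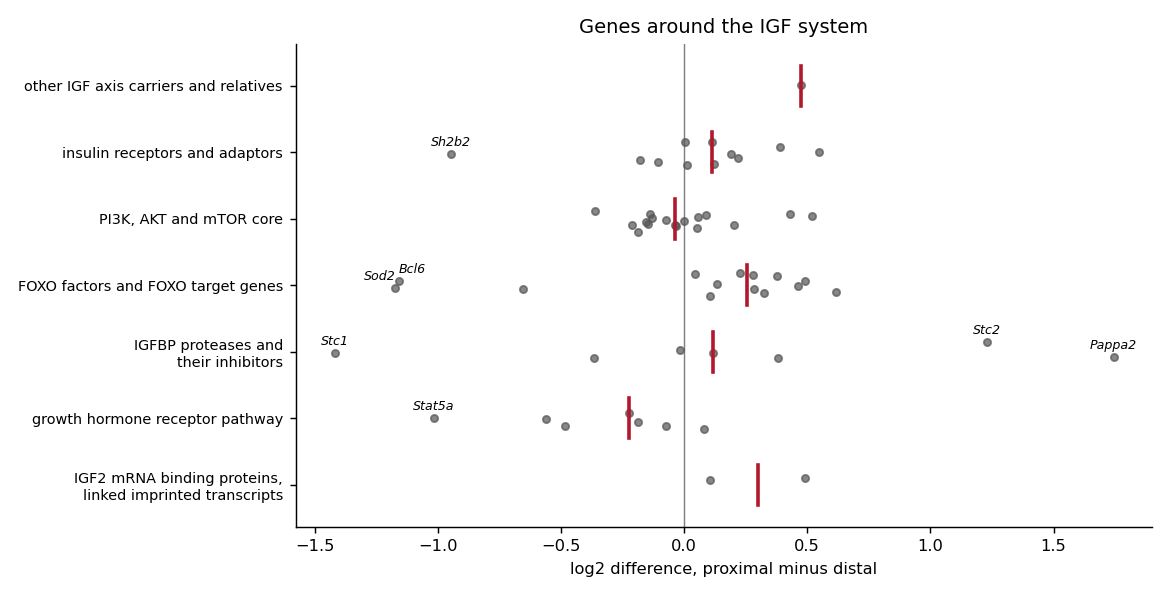
Log2 difference, proximal minus distal, of the 59 tested genes in 7 lists around the IGF system, 1 grey point a gene and a red bar at each list's median. Pappa2 (1.74) and Stc2 (1.23) lie farthest right and Stc1 (-1.42) farthest left, all in the list of binding protein proteases and their inhibitors.

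Genes with the most similar pattern were found by the Euclidean distance of centred log2(FPKM + 1) over the 4 libraries, among 7427 genes averaging at least 5 FPKM. Nearest to Igfbp5, the member with the largest positive difference, were BC028528 (0.119), Hsd11b1 (0.165) and Ermp1 (0.176). Hsd11b1, which regenerates active glucocorticoid, stood at 75.6 and 44.5 FPKM in the proximal and 34.1 and 37.8 FPKM in the distal libraries. Nearest to Igf1, the member with the largest negative difference, were Mapkapk2 (0.101) and Gm15657 (0.109). Over 4 libraries, small distances of this kind are easily reached and are given as a description.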

How the data were processed

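Per the labels' protocols, RNA was made into cDNA with the SMART-Seq v4 kit, which amplifies by PCR, and sequenced on an Illumina HiSeq instrument. Per the submitters' processing notes, the tools were Cufflinks 0.0.6, TopHat2 0.6 and bcl2fastq 1.8.3 and the genome mm10, with no role or order stated. Per the file headers, the authors' deposited values are FPKM per transcript with lower and upper bounds, and a coverage signal, whose median per FPKM was 5.22 to 6.34. Each of the 4 files holds 63241 transcripts. For the members' 11 transcripts at 1 FPKM or more in all libraries, the bounds reached 1.0% to 11.0% of the value on either side. They cover estimation within a library only.

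Each transcript took its gene name from its position in GENCODE M21 (span overlap times length similarity of at least 0.8, or both ends within 100 bp of exons of 1 gene, or overlap of at least 0.5), which named 87.97%. FPKM was summed per gene. Genes with a failed estimate (7) were left out. Genes with at least 1 FPKM in 2 libraries were fitted as log2(FPKM + 1), which understates changes of low genes, with limma 3.58.1 in R 4.3.3 (region as the only term, mean trend, two-sided, Benjamini-Hochberg over 11271 genes, threshold 0.05). The fit was run on simulated data, and no result of that run is given here. How the fit performs at the spread of these libraries was not tested. Other steps ran in Python 3.11.15 (pandas 2.3.3, numpy 2.4.6, matplotlib 3.10.9). The members and lists were chosen with earlier results of these data known. The text names all members, the 2 genes of smallest p in each list and the 3 genes nearest to a pair of members, except 1 that is not reported here; any other is marked where it stands. Alternatives changed the pseudocount, filter, scaling, naming, transcript sum, libraries and library number.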

Additional observations from a re-analysis of the deposited data

How the results depend on the processing

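The counts of called members stayed at 0 under every alternative that kept all libraries. In those fits the 9 members kept their direction in 79 of 79 refitted values. Changing the filter or adding the library number cannot move the region difference of a gene, so many of these values repeat the main fit. They are no separate support for a direction. With the library number as a term (replicate block), 465 genes in all and 7 list genes passed (Pappa2 and Stc2 higher, Stc1, Stat5a, Sod2, Bcl6 and Sh2b2 lower in proximal stroma; adjusted p from 0.00825 to 0.0467, limma). The smallest adjusted p of a member was 0.0954, for Igf1. Deviations of same-numbered libraries from their region means correlated at 0.815 across genes, but no label ties a number to an animal or day. The regions separated for 4 of 9 members under quantile normalization (25.0% of all genes) and for 5 under median ratio scaling (24.9%), which moved the median of all genes to -0.03 and -0.01. With a library left out, the regions separated for 3 members without distal library 2 (65.9% of all genes) and 7 without distal library 3 (43.5%). They separated for 8 without proximal library 2 (55.5%) and 4 without proximal library 3 (77.7%). Airn reversed to -0.0721 under quantile normalization. With the most abundant transcript only, the log2 ratio of binding proteins per ligand was 0.64, against 0.84 with all transcripts; without Igfbp7 it was 0.97, and with a library left out 0.70 to 0.97. The Igf1 transcript share then differed by -9.64 to -6.85 percentage points. For this share and the ratio per ligand the regions did not overlap, so leaving out a library could not reverse the sign.

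Leaving out a library mixes region with number. Calls over all genes were then 40 without distal library 2, 26 without distal library 3 and 0 without either proximal library. The log2 ratio of summed binding proteins ranged from -0.48 to 0.70, Igf2r from -0.21 to 0.65, Igfbp2 from -0.0137 to 1.37, Igfbp3 from -2.28 to 0.95, Igfbp4 from -0.67 to 0.32, Igfbp7 from -0.92 to 0.64, Pik3r3 from -0.11 to 1.14, Igf2bp2 from -0.70 to 1.68 and Airn from -0.38 to 0.59. Igfbp5 (0.35 to 1.10), Igfbp6 (0.41 to 0.85), Igf1 (-1.25 to -0.17) and Igf1r (-0.54 to -0.15) kept their sign. For Igfbp5 and Igfbp6 this was fixed in advance, because both proximal values lay above both distal values. Of the list genes, Irs1 ranged from 0.0957 (without proximal library 2) to 0.999 and Rictor from -0.64 to -0.0875. With pseudocounts of 5 and 0.1, Pappa2 differed by 0.81 and 2.55 and Stc2 by 0.51 and 1.89. Strict naming left Igfbp4, Stc2 and Sod2 without a value. With 2 libraries a region, 0 calls say little about small differences.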
